A study of Mus musculus with 18 samples.

Results

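The genes described here, 47 in number, act in mitosis and in DNA replication and were chosen by name. Of these, 45 had a probe on an Illumina mouse bead array with probes for 19057 genes of 1 symbol each, and Mki67 and Ccnb1 were not analysed here. The 45 genes had 96 probes among the 45281 of the array, and each gene was represented by the probe with the highest mean signal. Probes with a signal printed in more than 7 significant digits were to be left out of that choice, and 0 of the 96 were of this kind.

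RNA was measured on 18 arrays, 3 in each of 6 groups. The cells were tumour cells of the colon, per the labels, taken from C57Bl/6 mice aged 17 weeks that carried Fapbl-Cre, Apc2lox14/+ and tet-KrasLSL-G12D/+. This genotype, named FatK, was shared by all groups, and the labels did not state the cells in which the Cre driver is active. Cells with the surface protein CDCP1 were separated with antibody-coated magnetic beads and kept with doxycycline (Dox), again in all groups. The 3 mouse labels were FatK1, FatK5 and FatK7. Within each label cells were given a short hairpin RNA against the forkhead factor Foxd3 (shFoxd3) for 24 h or were left untreated, and the untreated cells were labelled as having had no treatment rather than a control hairpin. Nothing in the labels ties the 3 arrays of each group to separate mice or cultures. A p-value within a label therefore reflects the scatter between arrays, which may be technical, except that the untreated groups of FatK1 and FatK5 mixed arrays with different sex-linked RNAs, as given below.

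A dividing cell copies its DNA in S phase and separates the copies in mitosis. Cyclin D and cyclin E kinases release E2F factors, which switch on the genes for the MCM helicase, its loaders Cdc6 and Cdt1, and the enzymes of nucleotide supply. Later in the cycle cyclin B with Cdk1, Plk1 and the Aurora kinases drive mitosis, the kinesins and Prc1 build the spindle, Mad2l1 and Bub1b hold the checkpoint, and Cdc20 starts the exit. In the gut these genes mark the dividing cells of the crypt and of tumours, while resting fat, muscle and liver hold few dividing cells.

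Several measurements stood apart from the labels before any comparison. Foxd3 itself lay at background, between -10.3 and 11.4 on shFoxd3 arrays and between -6.24 and 16.5 on untreated arrays (1 of 18 detected), so the knockdown could not be checked. Xist, an RNA of the inactive X chromosome, had signals of 665 to 1470 on 8 arrays, all 6 shFoxd3 arrays of FatK1 and FatK5 and array 2 of the untreated cells of each. Eif2s3y, a gene of the Y chromosome, had signals of 328 to 872 on the other 10 arrays, which were arrays 1 and 3 of the untreated cells of FatK1 and FatK5 and all 6 of FatK7. The arrays of FatK1 and of FatK5 may therefore not come from 1 animal per label. With all arrays, a change with shFoxd3 in FatK1 or FatK5 cannot be told apart from this difference between the arms. The change over the labels rests in part on FatK1 and FatK5 and shares that limit. Values without the 4 untreated arrays with Eif2s3y of FatK1 and FatK5 are given beside the counts and for the genes described most fully. That leaves 1 untreated array in each of these labels, taken to vary like the other groups. Those arrays had Xist and all FatK7 arrays had Eif2s3y, so against FatK7 this setting cannot tell the label apart from the sex-linked RNAs. Of 10 intestinal epithelial markers Epcam was detected on 0 of 18 arrays, Cdx1, Krt20 and Cdh17 on 1 each and Vil1 and Cdx2 on 2 each. Lgals4 was detected on 18 arrays, Cdh1 on 11, Krt8 on 7 and Krt18 on 6, and the summed signal of the 10 was 7133 to 14920 in FatK7 and 82.4 to 956 in the other labels. Summed signals of 10 markers each were high for brown fat in FatK1 (49474 to 79948), for skeletal muscle in FatK5 (190376 to 244752) and for liver in FatK7 (67597 to 86353). A difference between mouse labels and a difference between these tissue signatures cannot be told apart, and fewer dividing cells cannot be told apart from less RNA per cell.

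Promoter sequences are shown for 4 members that carry the comparisons below, with the motifs that the mitosis and the replication genes are known for in capitals. They come from RefSeq for the mouse build GRCm38.p6, are written 5′ to 3′ on the strand of the gene, and run from 250 bases before to 50 bases after the annotated start. Capitals mark TTTGAA, the CHR element of mitosis genes, CCAAT boxes, and the E2F forms TTTGGCGC, TTTCGCGC and TTTCCCGC, each searched on both strands.
Prc1 (chr7:80294201-80294500, + strand): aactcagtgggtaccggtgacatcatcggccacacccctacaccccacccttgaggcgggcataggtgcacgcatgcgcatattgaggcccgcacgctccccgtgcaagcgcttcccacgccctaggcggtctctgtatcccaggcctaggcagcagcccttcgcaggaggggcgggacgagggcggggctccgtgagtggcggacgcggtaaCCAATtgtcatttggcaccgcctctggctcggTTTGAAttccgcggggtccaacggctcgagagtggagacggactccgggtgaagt
Cdc20 (chr4:118437294-118437593, - strand): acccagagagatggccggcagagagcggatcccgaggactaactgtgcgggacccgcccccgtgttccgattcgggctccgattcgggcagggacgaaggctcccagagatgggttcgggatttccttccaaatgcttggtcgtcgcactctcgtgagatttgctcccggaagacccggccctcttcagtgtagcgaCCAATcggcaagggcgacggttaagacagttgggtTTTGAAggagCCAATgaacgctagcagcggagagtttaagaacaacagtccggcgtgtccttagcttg
Mcm5 (chr8:75109259-75109558, + strand): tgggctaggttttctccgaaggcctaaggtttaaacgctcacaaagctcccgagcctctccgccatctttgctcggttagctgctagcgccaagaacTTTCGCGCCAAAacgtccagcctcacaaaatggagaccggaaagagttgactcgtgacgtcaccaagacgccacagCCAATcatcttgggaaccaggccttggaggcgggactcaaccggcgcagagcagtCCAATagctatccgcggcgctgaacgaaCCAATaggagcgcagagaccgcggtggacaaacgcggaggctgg
Cdt1 (chr8:122567765-122568064, + strand): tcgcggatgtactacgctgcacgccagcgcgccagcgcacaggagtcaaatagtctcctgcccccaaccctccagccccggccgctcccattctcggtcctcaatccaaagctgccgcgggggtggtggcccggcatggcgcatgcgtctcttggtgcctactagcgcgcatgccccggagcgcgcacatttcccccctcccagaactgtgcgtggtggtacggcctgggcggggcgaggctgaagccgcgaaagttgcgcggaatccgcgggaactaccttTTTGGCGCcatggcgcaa

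Prc1 and Cdc20 held 1 CHR each, at -5 and -18 from the annotated start, and 0 E2F forms. Mcm5 held 2 overlapping E2F forms, Cdt1 held 1, and neither held a CHR. Promoters were listed for 36 of the 45 genes. A CHR was found in 14 of 18 promoters of mitosis genes (77.8%) and in 1 of 12 of replication genes (8.33%), against 18.1% of 27025 mouse promoters of the same length. An E2F form was found in 1 of the 18 (5.56%) and in 6 of the 12 (50%), against 1.91% of all promoters. The CCAAT box was found in 27 of the 36 (75%), against 37.9% of all promoters. These counts describe letters in a window and say nothing about binding.

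The genes were unevenly detectable. A probe was called detected at a detection p-value below 0.05, and 17 of the 45 genes were detected on all 18 arrays, among them Cdk1, Aurka, Prc1, Nusap1, Mcm2, Mcm4, Mcm5 and Ccnd1. A further 21 were detected on 3 to 17 arrays, so 38 passed the filter of detection on at least 3 arrays and were tested. Ube2c and Cenpe were detected on 1 or 2 arrays, and Bub1, Kif20a, Cenpf, Racgap1 and Chek1 on 0. In FatK7 34 of the 45 genes were detected on all 3 shFoxd3 arrays and 32 on all 3 untreated arrays. In FatK1 the numbers were 26 and 27, and in FatK5 they were 25 and 23. The 21 genes detected on only part of the arrays could pass through the group in which they were high, so counts over the 38 describe and do not support a direction.

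**Figure D1:**
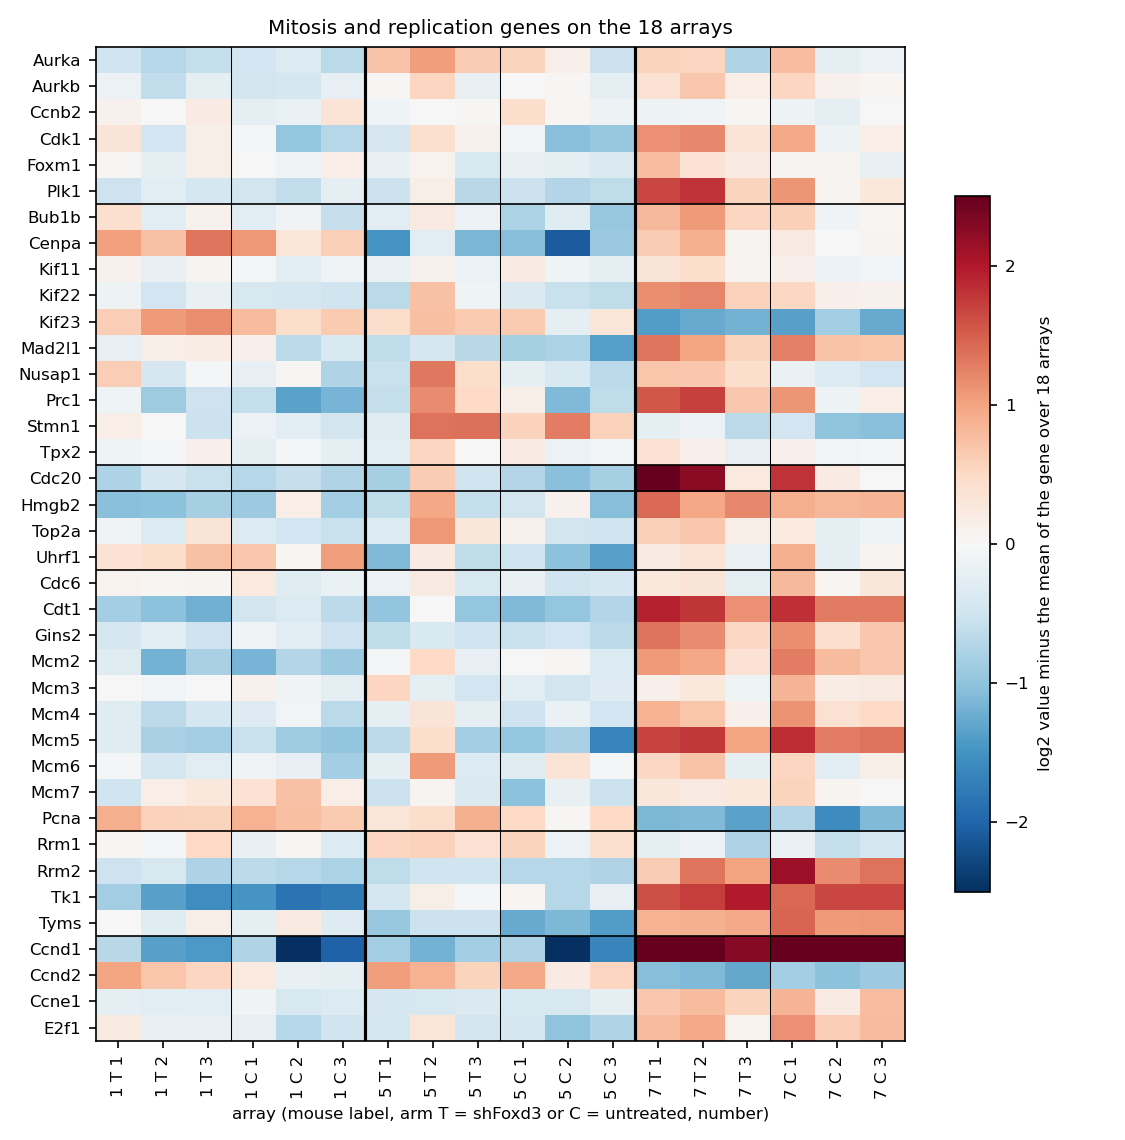
Log2 values of the 38 tested mitosis and replication genes on the 18 arrays, each minus the mean of that gene over the 18, in rows ordered by role and columns ordered by mouse label, arm (T for shFoxd3, C for untreated) and array number. The colour scale ends at 2.5 in both directions, and the row of Ccnd1 runs past it in FatK7. Array 2 of FatK5 shFoxd3 is red in many mitosis rows, and FatK7 arrays T 1, T 2 and C 1 are redder than the other 3 arrays of that label.

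The study asked what knockdown of Foxd3 does to these cells, and the first comparison set shFoxd3 against untreated cells over the 3 labels. All 17 tested mitosis genes had a change above 0, led by Prc1 and Nusap1, and the 14 tested replication genes had a median change of 0.06. None of the 38 tested members passed the limma test (0 called at an adjusted p below 0.05, where 0.105% of 24817 probes were called). At an unadjusted p below 0.05 there were 9 of the 38 and 1423 of the 24817 probes. Changes are differences of normalised log2 signal, shFoxd3 minus untreated, given with the moderated standard error. An offset of 16 had been added before the log2, which makes the changes of dim probes smaller.

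Prc1, which bundles the microtubules of the central spindle, had FatK1 signals of 76.0, 31.6 and 46.4 with shFoxd3 and 37.2, 17.4 and 20.0 untreated. Its FatK5 signals were 36.3, 216 and 121 with shFoxd3 and 71.6, 28.7 and 34.8 untreated. Its FatK7 signals were 328, 299 and 105 with shFoxd3 and 222, 63.0 and 87.6 untreated. The group means were higher with shFoxd3 in all 3 labels, and the arms overlapped in each label. The change over the labels was 0.78 ± 0.14 (SE, n = 3 labels; limma adjusted p = 0.451). It was 1.08 (adjusted p = 0.487) without the 4 untreated arrays with Eif2s3y, and 0.02 by the second brightest Prc1 probe, which had a mean signal of 5.00.

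Nusap1, a microtubule-binding protein of the spindle, had the next largest change among the mitosis genes. Its signals in FatK1 were 80.6, 26.3 and 40.2 with shFoxd3 and 28.7, 41.7 and 14.0 untreated. In FatK5 they were 20.9, 151 and 69.7 against 30.4, 31.0 and 17.2, and in FatK7 96.2, 72.3 and 47.2 against 38.3, 25.3 and 22.4. The arms overlapped in FatK1 and FatK5 and did not overlap in FatK7. The change was 0.71 ± 0.15 (limma adjusted p = 0.703), and 0.58 without the 4 untreated arrays with Eif2s3y.

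Cdk1, the kinase of mitotic entry, had FatK1 signals of 81.3, 34.1 and 60.5 with shFoxd3 and 46.2, 18.3 and 23.2 untreated, with means of 58.7 ± 23.7 and 29.2 ± 14.9 (SD, n = 3 arrays). In FatK5 the signals were 32.0, 95.8 and 68.2 against 46.3, 20.1 and 18.4, and in FatK7 181, 149 and 57.6 against 146, 45.8 and 63.8. The means were higher with shFoxd3 in each label and the arms overlapped in each. The change was 0.61 ± 0.12 (limma adjusted p = 0.629) by the brightest probe and -0.02 by the second, so its direction turned with the probe. It was 0.87 without the 4 untreated arrays.

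Top2a, the topoisomerase that untangles replicated DNA, was a dim probe detected on 10 of 18 arrays. Its signals in FatK1 were 17.8, 7.59 and 29.1 with shFoxd3 and 6.24, 2.62 and -1.28 untreated, without overlap. In FatK5 they were 8.24, 75.1 and 32.5 against 20.9, 3.46 and 1.26, and in FatK7 44.4, 37.0 and 16.3 against 27.4, 9.12 and 13.3, with overlap in both. Its change was 0.52 ± 0.09, with the lowest adjusted p of the list (limma adjusted p = 0.446), and 0.58 without the 4 untreated arrays.

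Bub1b, a kinase of the spindle checkpoint, had a change of 0.54 ± 0.12 (limma adjusted p = 0.79), with values of 0.39 in FatK1, 0.62 in FatK5 and 0.61 in FatK7. Bub1b had 0.34 over the labels, 0.17 in FatK1 and 0.24 in FatK5 without the 4 untreated arrays. The second Bub1b probe gave 0.06 over the labels. Ccnd1, the cyclin D that drives cells out of G1, had a change of 0.63 ± 0.15 (limma adjusted p = 0.79), with 0.88 in FatK1, 0.82 in FatK5 and 0.21 in FatK7. Without the 4 untreated arrays with Eif2s3y, the change of Ccnd1 over the labels was 1.46 (adjusted p = 0.729).

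The direction of the values can be counted over the roles. Of the 38 tested members 35 had a change above 0, against 11795 of 24817 probes (47.5%), and over all 45 genes with a probe the number was 40 with a median of 0.13. The median over the 38 was 0.18, against -0.01 over all probes. Of 17 mitosis genes, those of entry, spindle and exit, 17 had a change above 0, with a median of 0.28. Of 14 replication genes, those of licensing, helicase and nucleotide supply, 11 had a change above 0, with a median of 0.06. By label the replication count was 9 of 14 in FatK1 (median 0.09), 14 of 14 in FatK5 (0.24) and 6 of 14 in FatK7 (-0.04). The mitosis count was 15 of 17 in each label, with medians of 0.18, 0.39 and 0.47. These genes are not independent of each other, and the difference between the roles was not tested.

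The sign was the same in every label for fewer genes. In all 3 labels 17 of the 38 had a change above 0, against 13.4% of all probes, and 0 had a change below 0 in all 3. The 17 included Cdk1, Aurkb, Plk1, Bub1b, Mad2l1, Cenpa, Kif22, Tpx2, Nusap1, Prc1 and Cdc20 of the mitosis genes. Of the replication genes they included Mcm6, Rrm1 and Tk1. Without the 4 untreated arrays with Eif2s3y the counts above 0 over the labels were 30 of 38, 17 of 17 mitosis genes and 7 of 14 replication genes. When FatK5 was left out, 27 of the 38, 16 of the 17 and 6 of the 14 were above 0.

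**Figure D2:**
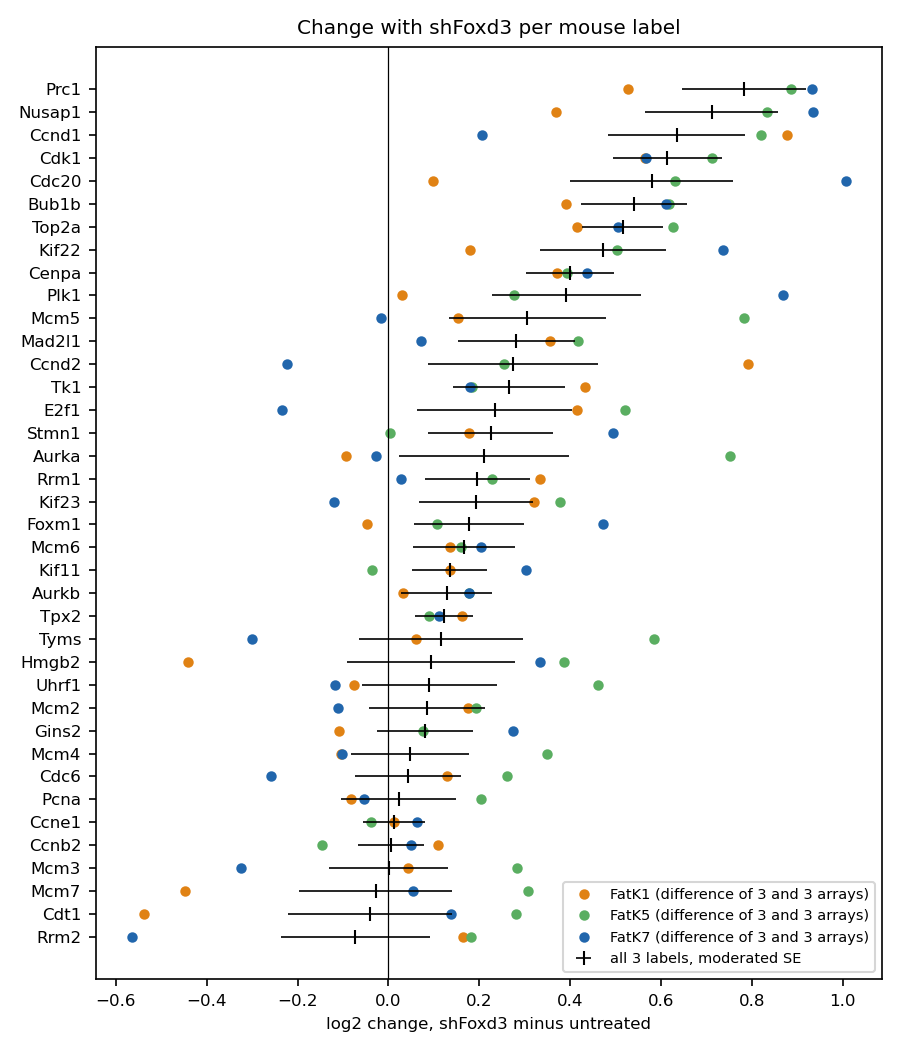
Log2 change with shFoxd3 minus untreated for the 38 tested genes, with 1 point per mouse label (the difference of means of 3 and 3 arrays) and, in black, the change over the 3 labels with its moderated standard error. Prc1 leads at 0.78 and Rrm2 is last at -0.07, and the points of the 3 labels lie close together for Cdk1 and Cenpa and far apart for Ccnd2, Cdt1 and Rrm2.

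Markers of other cells were also compared between the arms. Of 9 macrophage markers 0 were called over the labels and 9 had a change above 0 (against 47.5% of probes), with a median of 0.42. The ranges of their summed signals overlapped between the arms in each label. Their summed signals ran from 2318 to 3871 with shFoxd3 and 1774 to 2508 untreated in FatK1, from 1355 to 3252 and 1109 to 1920 in FatK5, and from 8054 to 15828 and 6682 to 8600 in FatK7. Of 9 fibroblast and endothelial markers 7 had a change above 0 over the labels (against 47.5% of probes), with a median of 0.36. Their summed signals were 15523 to 19282 with shFoxd3 and 8276 to 10216 untreated in FatK1, and 23523 to 36853 and 15094 to 27337 in FatK5. In FatK7 they were 6940 to 11519 with shFoxd3 and 8333 to 11881 untreated. The part of these cells in the values of the mitosis genes was not tested.

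Within FatK1 Ccnd2 came nearest to passing. Of the 38 changes 29 were above 0, against 46.3% of probes, with a median of 0.14. None of the 38 passed (0 called, where 0.737% of probes were called, limma on 18 arrays), and 2 had an unadjusted p below 0.05, against 2480 probes. Ccnd2 is a cyclin D of G1. Its signals were 914, 631 and 584 with shFoxd3 and 418, 343 and 306 untreated, so every shFoxd3 array lay above every untreated array. The change was 0.79 ± 0.18 (limma adjusted p = 0.0507), and the second Ccnd2 probe gave 0.78 (adjusted p = 0.101). Ccnd2 passed when FatK1 shFoxd3 array 3 (0.89, adjusted p = 0.0303) or untreated array 1 (0.94, adjusted p = 0.0249) was left out, settings in which 1.57% and 0.991% of probes were called.

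Cdt1, which loads the MCM helicase on origins, had signals of 25.8, 17.0 and 11.96 with shFoxd3 and 30.3, 39.1 and 24.3 untreated in FatK1. Its change was -0.54 ± 0.25 (limma adjusted p = 0.494), with 1 shFoxd3 array inside the range of the untreated arrays on the signal scale. The other genes with the smallest p were Tk1, the thymidine kinase of DNA synthesis, at 0.43 ± 0.22, Mcm7 of the helicase at -0.45 ± 0.25, Bub1b at 0.39 ± 0.23 and Ccnd1 at 0.88 ± 0.53. None of these passed (limma adjusted p = 0.547, 0.6, 0.638 and 0.654 in that order). Cdt1 had -0.68, Tk1 0.58 and Mcm7 -0.76 without the untreated arrays with Eif2s3y. Without overlap on the normalised scale 3 genes had the shFoxd3 arrays higher (Top2a, E2f1 and Ccnd2, against 6.34% of probes) and Cdt1 alone had them lower (against 7.74%).

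Skeletal muscle transcripts differed between the arms of FatK1. Summed over 10 markers they ran from 30029 to 96104 with shFoxd3 and from 81.5 to 22610.5 untreated. Of the 10 markers 8 were called higher, where 144 of 24817 probes were. Without the untreated arrays with Eif2s3y, array 2 was the only untreated array of FatK1. Then Ccnd1 (2.20, limma adjusted p = 0.00705) and Ccnd2 (0.93, adjusted p = 0.0195) were called higher with shFoxd3, 2 of the 38 where 4.21% of probes were called. Ccnd1 on that array had a signal of 32.6, against 221 and 89.98 on the other untreated arrays. In FatK1 other summed markers did not overlap between the arms either. Fibroblast and endothelial markers (15523 to 19282 against 8276 to 10216 untreated) and erythroid markers (26367 to 30516 against 23727 to 25311) were higher with shFoxd3. Neutrophil and myeloid precursor markers were lower (438 to 1492 against 1630 to 16779). The part of muscle or of these other transcripts in the values of Ccnd1 and Ccnd2 was not tested.

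In FatK5 the values of the mitosis genes rested largely on 1 array. None of the 38 passed (0 called, where 0.25% of probes were called), and 7 had an unadjusted p below 0.05, against 2671 probes. The smallest p belonged to Tyms, the enzyme that makes thymidylate, with signals of 35.4, 75.5 and 68.8 with shFoxd3 and 28.1, 39.0 and 23.1 untreated. Its change was 0.58 ± 0.18 (limma adjusted p = 0.235), and the second Tyms probe gave 0.03. On the signal scale shFoxd3 array 1 lay inside the untreated range. Bub1b had a change of 0.62 ± 0.23 (adjusted p = 0.324) and Mcm5 of the helicase 0.78 ± 0.31 (adjusted p = 0.348). Without the untreated arrays with Eif2s3y Tyms had 0.45, Bub1b 0.24 and Mcm5 0.46.

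Aurka, a kinase of the spindle poles, had FatK5 signals of 71.1, 139.6 and 93.5 with shFoxd3 and 67.3, 58.0 and 24.3 untreated, without overlap. The change of Aurka was 0.75 ± 0.33 (limma adjusted p = 0.41), that of Nusap1 was 0.83 ± 0.34 (adjusted p = 0.375) and that of Top2a was 0.63 ± 0.27 (adjusted p = 0.41). Without the untreated arrays with Eif2s3y these were 0.68, 0.79 and 0.81. Without overlap on the normalised scale 5 of the 38 were higher with shFoxd3, Aurka, Bub1b, Mad2l1, Rrm2 and Tyms, against 6.1% of probes, and 0 were lower, against 6.14%.

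On the normalised scale array 2 of FatK5 shFoxd3 was the highest of the 6 FatK5 arrays for 28 of the 38 genes (73.7%), against 14.4% of all probes. It was the highest for 14 of the 17 mitosis genes and for 10 of the 14 replication genes. Prc1 had a signal of 216 there, Nusap1 151, Cdc20 77.5, Kif22 85.8 and Mcm6 296. On the same array Elane, Mpo and Prtn3, the granule proteases and peroxidase of immature neutrophils, had a summed signal of 4146, against 17.7 to 397 on the other 17 arrays. The highest of those 17 was array 2 of the untreated cells of FatK5, where the mitosis genes lay at a median of -0.23 around the mean of the label. Elane, Mpo and Prtn3 are part of a list of 8 neutrophil and myeloid precursor markers. Summed over the 8, the signal was 38578 on array 2 of FatK5 shFoxd3 and 25558 on array 2 of untreated FatK5. It was 16779 on array 2 of untreated FatK1, where the mitosis genes lay at a median of -0.09.

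When array 2 of FatK5 shFoxd3 was left out, 27 of the 38 changes in FatK5 were above 0 rather than 35 (where 49.9% of probes were above 0 with all arrays). For the 17 mitosis genes the count went from 15 to 11 and the median from 0.39 to 0.13. The change of Nusap1 went from 0.83 to 0.37, that of Top2a from 0.63 to 0.26 and that of Mcm5 from 0.78 to 0.38. Without the same array the change over the 3 labels was 0.64 for Prc1, 0.56 for Nusap1 and 0.55 for Cdk1. Without the untreated arrays with Eif2s3y, Ccnd1 (1.98, limma adjusted p = 0.00911) and Kif23, a kinesin of cell division (0.85, adjusted p = 0.0362), were called higher in FatK5, with a single untreated array left and 6.39% of probes called. Summed brown fat markers did not overlap between the arms of FatK5 (28124 to 35999 with shFoxd3 and 19756 to 23089 untreated). The same was true of the dim liver markers there (91.6 to 112 and 53.8 to 83.4). The part of immature neutrophils or of these tissue transcripts in the values of the mitosis genes was not tested.

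**Figure D3:**
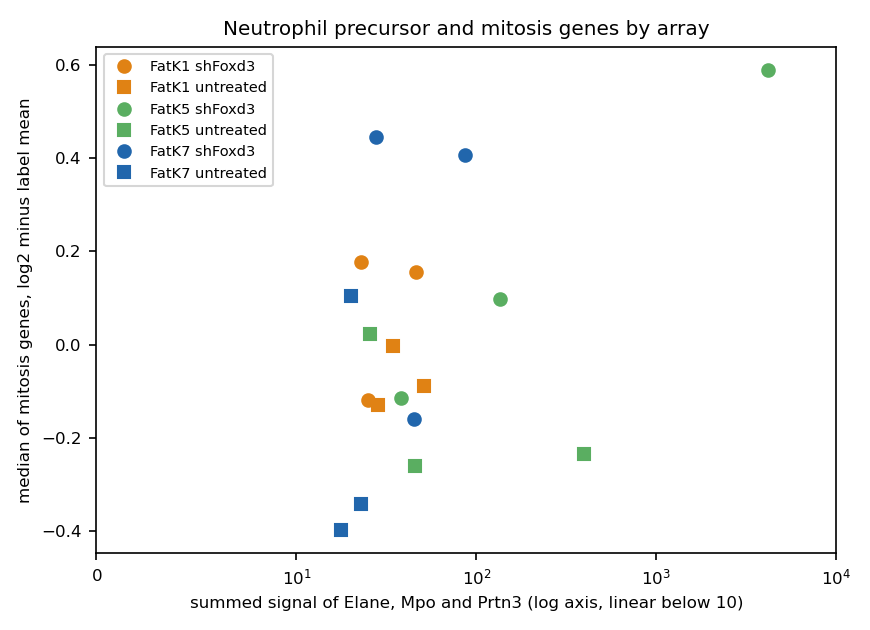
Median log2 deviation of the 17 mitosis genes from the mean of their mouse label (vertical axis) against the summed signal of Elane, Mpo and Prtn3 (horizontal axis, logarithmic above 10 and linear below), with 1 point per array. Array 2 of FatK5 shFoxd3 lies alone at 4146 and 0.59, while FatK7 shFoxd3 arrays 1 and 2 lie at 0.41 and 0.45 with summed signals of 86.8 and 27.7. Summed over all 8 listed neutrophil and myeloid precursor markers, not drawn here, array 2 of untreated FatK5 was also high (25558), with the mitosis genes at -0.23.

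In FatK7 Plk1, Foxm1 and Kif22 had the smallest p. None of the 38 passed (0 called, where 0.83% of probes were called), and 8 had an unadjusted p below 0.05, against 2333 probes. Plk1, a kinase of mitotic entry and spindle assembly, had signals of 145, 126 and 32.6 with shFoxd3 and 82.9, 22.8 and 31.0 untreated. Arrays 1 and 2 with shFoxd3 were the highest, untreated array 1 came next and the other 3 arrays lay close together. The change of Plk1 was 0.87 ± 0.29 (limma adjusted p = 0.262).

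Foxm1, the factor that switches on mitosis genes, had signals of 59.4, 28.7 and 20.6 with shFoxd3 and 24.2, 20.1 and 13.9 untreated. Its change was 0.47 ± 0.16 (limma adjusted p = 0.274). Kif22, a kinesin on chromosome arms, had signals of 125, 101 and 46.8 against 65.8, 36.6 and 38.3, and a change of 0.74 ± 0.26 (adjusted p = 0.299). For both genes shFoxd3 array 3 lay inside the untreated range on the signal scale and above it after normalisation. Nusap1 had a change of 0.93 ± 0.34 (adjusted p = 0.33) and Bub1b of 0.61 ± 0.23 (adjusted p = 0.353). Rrm2, the small subunit of ribonucleotide reductase, ran the other way, with signals of 57.2, 82.8 and 50.1 with shFoxd3 and 203, 73.8 and 91.9 untreated. The change of Rrm2 was -0.57 ± 0.21 (adjusted p = 0.327), and the arms overlapped.

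Cdc20 activates the complex that ends mitosis. Its FatK7 signals were 378, 242 and 32.1 with shFoxd3 and 199.7, 38.6 and 33.1 untreated. On the normalised scale array 3 with shFoxd3 was the lowest of the 6 arrays for 13 of the 38 genes (against 18% of probes). Untreated array 1 was the highest for 14 of the 38 (against 14.1% of probes), of which 9 were replication genes and 1 was a mitosis gene. Array 2 with shFoxd3 was the highest for 12 of the 38 (against 15.8% of probes), of which 9 were mitosis genes such as Cdk1, Plk1, Bub1b and Prc1.

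In FatK7 25 of the 38 changes were above 0, against 49.1% of probes. Of the 17 mitosis genes 15 had a change above 0, with a median of 0.47, and of the 14 replication genes 6 did, with a median of -0.04. Without shFoxd3 array 3 the counts were 16 of 17 and 10 of 14, with medians of 0.65 and 0.09. In that setting, where 1.56% of probes were called, Plk1 (1.26, limma adjusted p = 0.0197) and Cdc20 (1.73, adjusted p = 0.0491) were called higher, and Cdc20 is named after its values were seen. Without untreated array 1 the counts were 16 of 17 and 10 of 14, with medians of 0.51 and 0.13, and 0 members were called. No overlap on the normalised scale was seen for 4 genes that were higher with shFoxd3, Kif22, Nusap1, Foxm1 and Hmgb2 (against 8.67% of probes), and for 2 that were lower, Tyms and Ccnd2 (against 9.09%). Of 9 macrophage markers in FatK7 2 were called higher, Adgre1 and C1qb, where 123 of 24817 probes were. The summed signal of the 9 was highest on shFoxd3 array 1 (15828), and its ranges overlapped between the arms. Summed over the 8 neutrophil and myeloid precursor markers, the FatK7 arms did not overlap (581 to 3545 with shFoxd3 and 337 to 434 untreated). The part of macrophages or of neutrophils in the values of FatK7 was not tested.

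**Figure D4:**
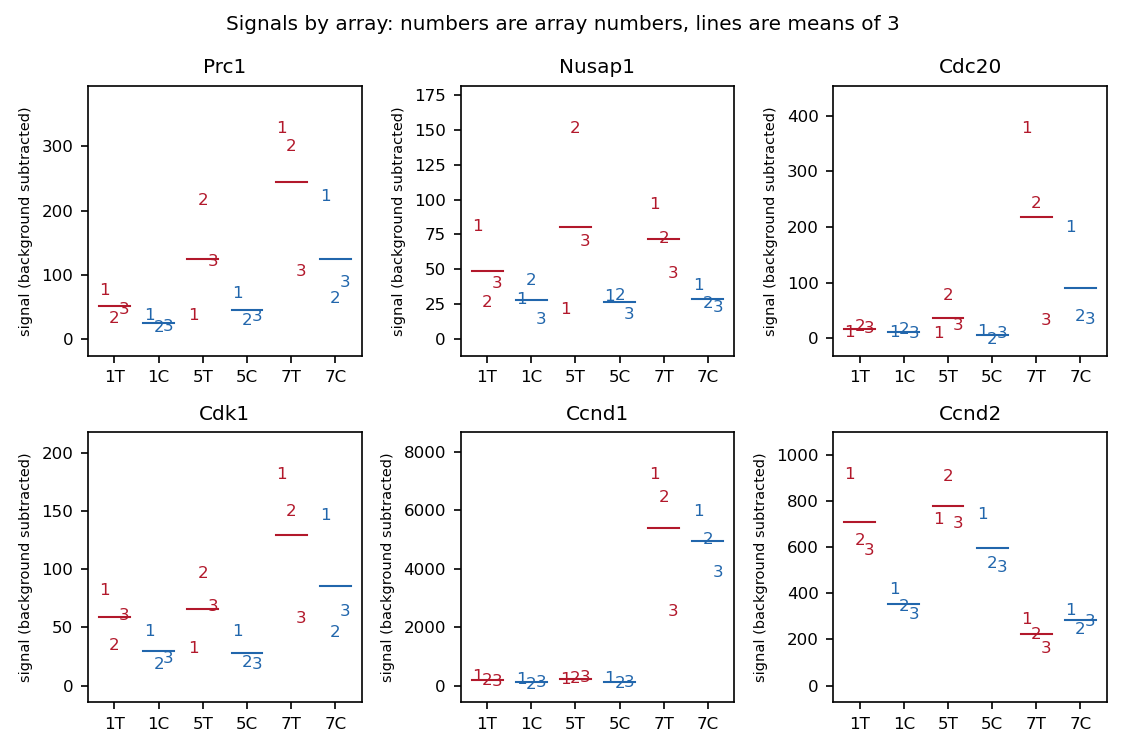
Background-subtracted signals of Prc1, Nusap1, Cdc20, Cdk1, Ccnd1 and Ccnd2 on each of the 18 arrays, with the array number as the symbol and a line at the mean of the 3 arrays, red for shFoxd3 (T) and blue for untreated (C). Cdc20 runs from 32.1 to 378 among the 3 shFoxd3 arrays of FatK7, and Ccnd2 is separated between the arms of FatK1.

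Whether the shFoxd3 change differed between the labels was tested as an interaction on the 18 arrays. None of the 38 passed (0 called by the limma F-test, where 0.218% of probes were called), and 3 had an unadjusted p below 0.05, against 2582 probes. The smallest p was that of Ccnd2 (adjusted p = 0.213), with changes of 0.79 in FatK1, 0.25 in FatK5 and -0.22 in FatK7. Tyms (adjusted p = 0.312) had 0.06, 0.58 and -0.30, and Rrm2 (adjusted p = 0.419) had 0.16, 0.18 and -0.57. Cdt1, Foxm1 and E2f1, the E2F that drives S phase genes, followed with adjusted p = 0.539, 0.563 and 0.574. Without the untreated arrays with Eif2s3y, Ccnd1 (adjusted p = 0.0324) and Ccnd2 (adjusted p = 0.0235) passed, 2 of the 38 where 5.46% of probes did. Then the adjusted p of Tyms, Rrm2, Cdt1, Foxm1 and E2f1 ran from 0.244 to 0.58.

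Much larger differences lay between the untreated cells of the 3 labels. Of 14 replication genes, 8 were called higher and 1 lower in untreated FatK7 than in FatK1 (25.1% and 30.8% of probes). Against FatK5, 11 of the 14 were called higher and 2 lower (30.8% and 32.8% of probes). Some genes could pass the filter through FatK7 alone, so these counts and those by role below describe and do not support a direction. Of the 7 replication genes detected on all 18 arrays, 5 lay above 0 against FatK1 and 6 against FatK5. Among the 11266 probes detected on all arrays, 4707 and 5336 did. Ccnd1 was called higher in FatK7 in both comparisons, and Ccnd2 and Pcna lower. By the F-test over the 3 untreated groups 30 of the 38 members differed (where 73.6% of probes did), a share near that of all probes. The 8 that did not pass were Top2a, Ccnb2, Aurka, Tpx2, Kif11, Nusap1, Foxm1 and Mcm6. FatK7 had the highest untreated mean for 27 of the 38, against 8687 of 24817 probes. The 3 pairwise comparisons share untreated groups, so their values are set side by side only.

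Against FatK1, untreated FatK7 had 19 members higher (where 25.1% of probes were called higher) and 3 lower (where 30.8% were). In either direction 22 of the 38 were called, against 55.9% of probes. Against FatK5, 23 were higher (where 30.8% of probes were) and 5 lower (where 32.8% were). In either direction 28 of the 38 were called, against 63.6% of probes. Untreated FatK5 against FatK1 had 4 members higher (where 18.8% of probes were) and 5 lower (where 23.2% were), 9 of the 38 in all against 42% of probes. The median difference over the 38 was 0.62 for FatK7 minus FatK1, 0.89 for FatK7 minus FatK5 and -0.10 for FatK5 minus FatK1. Over all tested probes these medians were -0.08, -0.05 and -0.03. Leaving out the 4 untreated arrays with Eif2s3y sets Xist arrays of FatK1 and FatK5 against Eif2s3y arrays of FatK7. Differences from FatK7 in that setting therefore cannot be told apart from differences in sex-linked RNAs. Without the 4 untreated arrays with Eif2s3y, 16 members were called between FatK7 and FatK1 (47.8% of probes), 22 between FatK7 and FatK5 (54.9%), 3 between FatK5 and FatK1 (27.8%) and 21 by the F-test (63.9%). Of the 9 calls between FatK5 and FatK1, Tyms (-1.36), Tk1 (1.12) and Cenpa (-2.37) remained. Stmn1 (1.56), Mcm2 (0.76), Ccnd2 (0.40), Uhrf1 (-1.07), Mcm7 (-0.93) and Mad2l1 (-0.11) did not pass with 1 array per group.

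Ccnd1 had untreated signals of 221, 32.6 and 89.98 in FatK1, 231, 53.7 and 113 in FatK5 and 5971, 4985 and 3881 in FatK7. All FatK7 arrays lay far above all others. The difference was 4.93 ± 0.53 from FatK1 (limma adjusted p = 1.9e-07) and 4.68 ± 0.53 from FatK5 (adjusted p = 2.81e-07). The second Ccnd1 probe gave 4.69 and 5.09, and without the 4 untreated arrays the differences were 6.26 and 5.84. Ccnd2 had 418, 343 and 306 in FatK1, 741, 529 and 514 in FatK5 and 325, 243 and 279 in FatK7. It was lower in FatK7 by both comparisons, at -0.87 ± 0.18 and -1.50 ± 0.18, and higher in FatK5 than in FatK1 at 0.62 ± 0.18 (adjusted p = 0.0091, and 0.40 with adjusted p = 0.274 without the untreated arrays with Eif2s3y). The remaining G1/S genes, E2f1 and Ccne1, a cyclin of S phase entry, were called higher in FatK7 than in both other labels. Ccne1 was not detected on any untreated array of FatK1 or FatK5 and was at least 1.46-fold and 1.54-fold higher in FatK7. These bounds set the FatK7 mean against the dimmest probes that were detected on each array.

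Among the genes of origin licensing and helicase, 5 of 10 were called higher in FatK7 than in FatK1 (where 25.1% of probes were). Against FatK5, 8 of 10 were called higher (where 30.8% of probes were). Mcm5 had untreated signals of 67.4, 58.0 and 47.5 in FatK1, 50.1, 69.1 and 25.1 in FatK5 and 654, 368 and 413 in FatK7. FatK7 lay above both other labels without overlap, by 2.30 ± 0.31 and 2.64 ± 0.31 (limma adjusted p = 3.22e-06 and 4.29e-07). Cdt1 had 30.3, 39.1 and 24.3 in FatK1, 14.7, 22.2 and 22.8 in FatK5 and 299.6, 163 and 175 in FatK7. The differences of Cdt1 were 1.96 ± 0.25 and 2.42 ± 0.25. With the 4 untreated arrays left out, Mcm5 had 2.38 and 2.31, and Cdt1 1.82 and 2.44. Mcm2 of the helicase was 1.86 ± 0.25 higher than in FatK1, and it was also 0.84 ± 0.25 higher in FatK5 than in FatK1, a call that ended without the 4 untreated arrays (adjusted p = 0.263).

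Pcna, the sliding clamp of the replication fork, was the replication gene called lower in FatK7 than in both other labels. Its untreated signals were 119.8, 122 and 102 in FatK1, 93.7, 79.8 and 87.2 in FatK5 and 41.0, 8.29 and 23.5 in FatK7. It was lower in FatK7 at -1.90 ± 0.21 and -1.48 ± 0.21 (limma adjusted p = 3.13e-07 and 5.83e-06), without overlap. These were -1.89 and -1.16 without the 4 untreated arrays. Mcm7 was lower in FatK5 than in FatK1 at -1.01 ± 0.25 (adjusted p = 0.00259), where its second probe gave -0.24 (adjusted p = 0.222). Between FatK7 and FatK1 Mcm7 did not pass (-0.22), and its second probe gave 0.53 (adjusted p = 0.00511).

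Of the 4 genes of nucleotide supply 3 were called higher in FatK7 than in each other label (25.1% of probes against FatK1 and 30.8% against FatK5). Tk1 had untreated signals of 15.7, 6.56 and 7.86 in FatK1, 74.9, 49.0 and 57.3 in FatK5 and 326, 333 and 357 in FatK7. The 3 labels did not overlap. FatK7 was 3.29 ± 0.22 above FatK1 and 1.88 ± 0.22 above FatK5, and FatK5 was 1.40 ± 0.22 above FatK1. Tk1 was detected on 1 of the 3 untreated FatK1 arrays, so its level there is poorly measured. The second Tk1 probe gave 1.51, 1.43 and 0.08 (adjusted p = 0.691 for the last), which ends the call between FatK5 and FatK1. Leaving out the 4 untreated arrays gave 3.43, 2.31 and 1.12. Rrm2 had signals from -4.74 to 1.56 in untreated FatK1 and FatK5, where it was detected on 0 of 6 arrays, and 203, 73.8 and 91.9 in FatK7. It was at least 3.89-fold higher than in FatK1 and at least 4.09-fold higher than in FatK5. Tyms was 2.46 ± 0.18 higher in FatK7 than in FatK5, and 1.15 lower on the log2 scale in FatK5 than in FatK1 (difference -1.15 ± 0.18). The second Tyms probe gave 1.61 for the first and -0.18 (adjusted p = 0.365) for the second, which ends that call. Rrm1, the large subunit of the reductase, was lower in FatK7 than in FatK5 at -0.68 ± 0.21 (adjusted p = 0.00764), where its second probe gave 0.27, so the direction turned with the probe. Leaving out the 4 untreated arrays ended that call (-0.27, adjusted p = 0.424), and Tyms then had 2.33 in FatK7 against FatK5.

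Among the 17 mitosis genes, 7 were called higher in FatK7 than in FatK1 (where 25.1% of probes were) and 7 than in FatK5 (where 30.8% were). Kif23 was called lower in both comparisons and Stmn1 against FatK5, with values given below. Mad2l1, a protein of the spindle checkpoint, had untreated signals of 80.4, 47.4 and 53.5 in FatK1, 38.6, 48.6 and 20.7 in FatK5 and 296, 159 and 165 in FatK7. It was also 0.69 lower on the log2 scale in FatK5 than in FatK1 (difference -0.69 ± 0.24, limma adjusted p = 0.0281). For FatK7 against FatK1 its second probe gave 0.14 (adjusted p = 0.68), which ends the call, while its first gave 1.56 without the 4 untreated arrays. Plk1, Cdc20, Cdk1 and Kif22 were called higher in FatK7 than in both other labels. Without the 4 untreated arrays Cdk1 and Prc1 passed in both comparisons, Plk1 against FatK5 alone, and Cdc20, Kif22 and Aurkb in neither. With all arrays Prc1 and Aurkb passed against FatK1 and not against FatK5. The second Cdk1 probe was called in the opposite direction, at -0.73 (limma adjusted p = 0.0035) and -0.83 (adjusted p = 0.000949), and the second Prc1 probe gave -0.25 and -0.31. The second Cdc20 probe gave 0.47 (adjusted p = 0.217) and 0.63 (adjusted p = 0.0895), which ends both of its calls. Whether the values of Prc1 and Aurkb differ between the comparisons was not tested.

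Cenpa, the histone variant of centromeres, was low in FatK5. Its untreated signals were 678, 429 and 485 in FatK1, 168, 94.8 and 167 in FatK5 and 669.9, 495 and 541 in FatK7. The FatK5 arrays lay below all others, and the difference from FatK1 was -2.01 ± 0.31 (limma adjusted p = 3.16e-05). Kif23 had signals of 1165, 967 and 1048 in FatK1, 1129, 747 and 821 in FatK5 and 455, 577 and 445 in FatK7. It was lower in FatK7 at -1.79 ± 0.20 and -1.40 ± 0.20, and its second probe gave 0.10 for both, so the direction turned with the probe. Leaving out the 4 untreated arrays gave -1.59 and -0.93. Stmn1, which takes microtubules apart, was 1.10 ± 0.34 higher in FatK5 than in FatK1 and lower in FatK7 than in FatK5 at -1.65 ± 0.34 (-2.11 without the 4 untreated arrays). Uhrf1, which carries DNA methylation through replication, was lower in FatK5 than in FatK1 at -1.55 ± 0.33 (adjusted p = 0.000876). The calls of Stmn1 and Uhrf1 between FatK5 and FatK1 ended without the 4 untreated arrays (adjusted p = 0.0804 and 0.169).

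**Figure D5:**
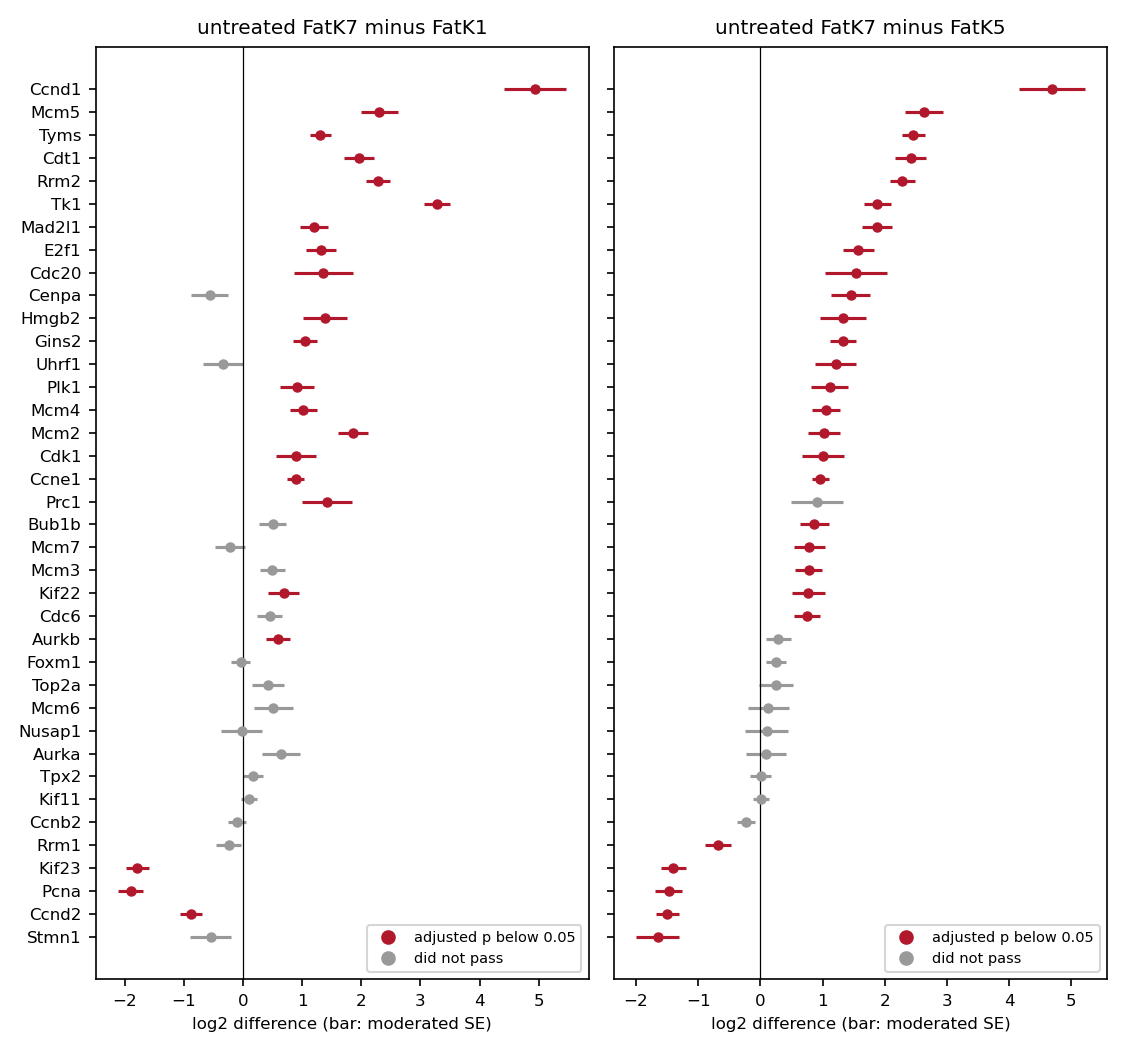
Log2 difference of untreated FatK7 from untreated FatK1 (left) and from untreated FatK5 (right) for the 38 tested genes, with bars for the moderated standard error (3 arrays per group) and red for an adjusted p below 0.05. Ccnd1 stands apart at 4.93 and 4.68, most replication genes lie to the right of 0 in both panels, and Kif23, Pcna and Ccnd2 lie to the left.

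Other genes of the same processes were listed by name. With shFoxd3 over the labels 0.105% of all probes were called and 47.5% had a change above 0. Of 27 tested other mitosis genes 0 were called and 23 had a change above 0, with a median of 0.12. Cdca3, a trigger of mitotic entry, had the largest value at 0.67 ± 0.23 (limma adjusted p = 0.79). Of 32 tested other replication genes 0 were called and 18 had a change above 0, with a median of 0.02. At an unadjusted p below 0.05 there were 6 and 2 of these genes, against 1423 of 24817 probes. Of 8 tested inhibitors of the cell cycle 0 were called, 0 at an unadjusted p below 0.05, and 4 had a change above 0. The inhibitors Cdkn1a, Cdkn1b, Cdkn1c, Rb1, Rbl1, Rbl2 and Gadd45a were listed but not tested. All their probes had signals printed in more significant digits than the limit given above. For the same reason Ccna2 and Birc5 were left out of the other mitosis genes and Ccne2 out of the other replication genes.

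Between untreated FatK7 and FatK1, 9 of the 27 other mitosis genes were called higher and 3 lower, and 12 of the 32 other replication genes were called higher and 8 lower. Called in either direction were 44.4% of the 27 and 62.5% of the 32, against 55.9% of probes. Against FatK5, 8 and 2 of the 27, and 17 and 5 of the 32, were called, which is 37.0% and 68.8% against 63.6% of probes. Mcm10, a helicase factor of the replication fork, was 5.62 ± 0.32 above FatK1 and 5.71 ± 0.32 above FatK5, the largest difference of that list in both comparisons. Gins1, a subunit of the same helicase, was 2.42 ± 0.14 and 2.44 ± 0.14 above. Both genes were detected on 1 of 3 untreated arrays in FatK1 and in FatK5, so their levels there are poorly measured. Of the 8 inhibitors 6 were called lower in FatK7 than in FatK1 (where 30.8% of probes were) and 0 higher (where 25.1% were), with Ccng1, a p53 target, at -2.44 ± 0.23. Among the largest differences from FatK5, Ccng1 (-4.08), Btg2 (-1.67) and E2f4 (-0.98) were called lower. Cdkn2c was called higher there, at 1.87 ± 0.21 (limma adjusted p = 2.1e-07).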

How the data were processed

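Expression was read from 18 mouse bead arrays made by Illumina. The deposited signal intensities were background-subtracted (23.2% to 30.9% of values per array were below 0) and came with detection p-values from the authors' scanner export, per the file headers; the software was not given in the sources used here. The deposited value table held the same intensities times 1 factor per array and served as an alternative. Here neqc of limma 3.58.1 (R 4.3.3) corrected background from the detection p-values, added an offset of 16, quantile-normalised and took log2. Probes detected (p below 0.05) on at least 3 arrays were tested, 24817 of 45281. Arrays had mean signals of 181 to 294 and 17289 to 19993 detected probes, and 3 per group limits precision. The comparison across labels used the mean of 3 arrays per group with the mouse label as a block. Within-label, interaction and untreated comparisons used 6 group means on 18 arrays (lmFit, eBayes with trend, Benjamini-Hochberg over all tested probes). Members named with tests were up to 6 called in each direction with the largest change, or, where none was called (and for the interaction), the 6 with the smallest p; other members may be named with their levels, and up to 4 genes per other list. The fits were tested on simulated data. Alternatives covered background, offset, filter, deposited values, probe choice, blocks and left-out arrays. The members and lists were chosen with earlier results of these data known.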

Additional observations from a re-analysis of the deposited data

Results flagged for a closer look

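Tyms and Ccnd2 had arms that did not overlap in opposite directions in different mouse labels, on the normalised scale. Of all probes, 6.34% did so with shFoxd3 higher in FatK1, 6.1% with it higher in FatK5 and 9.09% with it lower in FatK7. The change of Tyms was 0.58 in FatK5 and -0.30 in FatK7, with 3 of 3 shFoxd3 arrays above all untreated arrays in FatK5 and 3 of 3 below them in FatK7. On the signal scale the Tyms arms overlapped in FatK5, and the second Tyms probe gave 0.03 in FatK5 and -0.41 in FatK7. The change of Ccnd2 was 0.79 in FatK1 and -0.22 in FatK7, and its second probe gave 0.78 and -0.10. The limma interaction test over the 3 labels did not pass for either (adjusted p = 0.312 for Tyms and 0.213 for Ccnd2). Without the 4 untreated arrays with Eif2s3y the adjusted p of the interaction was 0.244 for Tyms and 0.0235 for Ccnd2. The part of muscle, macrophage and other cell type transcripts in these values was not tested.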

How the results depend on the processing

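Over the labels 0 members were called under every alternative run, including leaving out each of the 18 arrays (0 to 0), a choice made after seeing the data. Within FatK1 1 was called with the replicate block and 2 without the 4 untreated arrays with Eif2s3y, and the same omission gave 2 in FatK5 and 2 in the interaction. Leaving out 1 array gave 0 to 1 calls in FatK1, 0 to 0 in FatK5, 0 to 2 in FatK7, 0 to 0 in the interaction and 21 to 30 in the untreated F-test. It gave 7 to 9, 16 to 25 and 24 to 29 for FatK5 minus FatK1, FatK7 minus FatK1 and FatK7 minus FatK5. Of 24817 probes 70 to 390, 65 to 267, 94 to 386, 13 to 228 and 17239 to 18099 were then called in the first 5. In the 3 pairs 9536 to 10141, 12638 to 13123 and 14609 to 15229 were. With genes detected on all 18 arrays (17 tested) the F-test called 14, and FatK7 minus FatK1 and minus FatK5 called 10 and 13. In that setting 9548, 7571 and 8096 of 11266 probes were called. With second probes (17 tested) the numbers were 12, 10 and 12, where 73.6%, 55.9% and 63.6% of probes were called. For FatK5 minus FatK1 they called 2, where 42% of probes were called. Among the members named with tests by the fixed choice, second probes turned the direction of Cdk1 over the labels (-0.016) and Bub1b in FatK7 (-0.069). They also turned Kif23 in FatK7 against FatK1 (0.10) and FatK5 (0.10), and Rrm1 in FatK7 against FatK5 (0.27). Outside that choice they turned Cdk1 (-0.73 and -0.83) and Prc1 (-0.25 and -0.31) in FatK7 against FatK1 and FatK5, among others. Counting values with or without a call, the sign differed between the probes for 2 of 17 genes over the labels, 4 in FatK1, 3 in FatK5, 4 in FatK7, and 5, 6 and 4 in the untreated pairs in the order above. The causes were not tested, beyond the smaller number of genes. Of 1100 single-gene alternatives 21 lost a call and 7 gained one. Same-numbered arrays of the 2 arms correlated at -0.015 to 0.26, so the numbers were not taken as pairs, and the replicate block gave Ccnd2 a call in FatK1 (0.79, limma adjusted p = 0.0145). Dim probes, detected on few arrays, limit what can be seen.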
